A study of Mus musculus with 4 samples.

Results

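The genes described here are 10 members of the Eph and ephrin family known from the intestinal crypt: the receptor genes Ephb1, Ephb2, Ephb3, Ephb4, Epha1, Epha2 and Epha4, and the ligand genes Efna1, Efnb2 and Efnb3. Eph proteins are receptor tyrosine kinases, and ephrins are their ligands, which stay tethered to the membrane, so both partners can signal into their own cell when neighbouring cells touch. In the gut, EphB2 and EphB3 are known targets of Wnt signalling that are strongest near the crypt base, whereas B-class ephrins are found on the more differentiated cells above. Repulsion between both zones keeps cells in their place along the crypt, and loss of EphB receptors is known from advanced colorectal tumours. The open chromatin of these genes was taken from 1 list of ATAC-seq peaks. A region was counted for a gene if one of its summits lay inside the gene or within 1000 bp of it. It was also counted if it lay away from gene ends and its nearest protein-coding gene end, within 100 kb, was that of the gene. By this rule the 10 genes held 208 of the 113404 regions in the list, with 391 summits.

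The libraries came from wild-type mouse colonic organoids, cultures of epithelial cells grown with EGF, Noggin, R-spondin and Wnt, derived from mice with chronic colitis or from healthy controls. Each kind of organoid was treated for 24 h with 10 µM T-5224, a small molecule made to block AP-1, the Fos and Jun transcription factor, or with 0.1% DMSO as vehicle. This made 4 groups of 1 library each, all given the same batch in the labels, and cells were frozen and thawed before nuclei were prepared. The medium supplied Wnt and R-spondin in all groups. The list holds no value for a single library, and the labels do not say which libraries it was called from. Colitis was therefore not compared with control, nor T-5224 with DMSO, and no value has a replicate. In such bulk material, fewer open cells and less access per cell cannot be told apart.

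Values are the authors' fold enrichment at a summit over a background that is the same for every base. The fold values were whole steps of 1 constant, from which the pileup (the number of stacked reads or fragments) was recovered. It ranged from 17 to 8197 over the list, against a background of 7.63. Brackets after a fold give the exact Poisson 95% interval of that pileup, which covers counting error only. It does not allow for a summit having been picked as the strongest of several. The median region of the list had 4.99-fold. The labelled tissue was checked against its markers. All 10 genes of colonic epithelium had a summit at an outer end, where 64.3% of all protein-coding genes did. The highest were the tight junction gene Cldn7 (61.3-fold) and the keratin gene Krt8 (59.1-fold). Of 12 genes of leukocytes, vessels and connective tissue 5 had one, the highest being Col1a1 (16.3-fold) and Pdgfrb (6.49-fold). The 7 without one included the leukocyte genes Ptprc and Cd3e. Away from gene ends the separation was less clear. Cdh5, without an end summit, was the nearest gene of 17 regions of up to 51.5-fold. Such regions reached 17.0-fold for Acta2 and 11.1-fold for Csf1r, and at most 9.51-fold for the other genes of this list.

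Annotated start windows were matched in RefSeq (GRCm38.p6) for 9 of the 10 genes, Efnb3 being the one without. Each window runs from 250 bases before to 50 bases from the start onwards. The 6 shown are those of the strongest receptor gene (Ephb3), the other classical Wnt target (Ephb2), the weakest gene with a summit (Ephb1), the gene with the strongest upstream region (Epha2) and both open ligand genes (Efnb2 and Efna1). They are written 5′ to 3′ on the gene's strand, and capitals mark the 21 bases centred on the strongest summit, or the 14 of them that fit in the window of Epha2. The windows lie at chr16:21204545-21204844 (plus strand) for Ephb3, chr4:136835963-136836262 (minus) for Ephb2, chr9:102354644-102354943 (minus) for Ephb1, chr4:141300971-141301270 (plus) for Epha2 and chr8:8661193-8661492 (minus) for Efnb2. Efna1 has 2 annotated starts, and the inner one, at chr3:89279596-89279895 (minus), is shown because the strongest summit of the outer one falls beyond its window.
Ephb3: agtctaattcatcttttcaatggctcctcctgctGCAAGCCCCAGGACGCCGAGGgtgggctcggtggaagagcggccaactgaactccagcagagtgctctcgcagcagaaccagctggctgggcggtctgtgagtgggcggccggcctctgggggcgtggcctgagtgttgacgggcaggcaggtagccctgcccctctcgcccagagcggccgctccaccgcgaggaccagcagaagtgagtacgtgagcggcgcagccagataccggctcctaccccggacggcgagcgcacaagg
Ephb2: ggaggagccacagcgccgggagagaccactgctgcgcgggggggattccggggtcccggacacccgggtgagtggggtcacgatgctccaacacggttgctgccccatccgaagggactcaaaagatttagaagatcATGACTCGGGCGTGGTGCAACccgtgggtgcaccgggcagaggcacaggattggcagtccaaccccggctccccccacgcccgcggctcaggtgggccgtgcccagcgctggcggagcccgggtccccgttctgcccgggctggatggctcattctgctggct
Ephb1: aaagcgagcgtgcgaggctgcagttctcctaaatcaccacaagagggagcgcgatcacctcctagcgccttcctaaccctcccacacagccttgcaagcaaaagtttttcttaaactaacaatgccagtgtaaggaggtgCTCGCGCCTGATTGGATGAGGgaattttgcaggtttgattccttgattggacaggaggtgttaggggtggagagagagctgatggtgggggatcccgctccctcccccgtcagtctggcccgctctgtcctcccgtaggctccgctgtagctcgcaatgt
Epha2: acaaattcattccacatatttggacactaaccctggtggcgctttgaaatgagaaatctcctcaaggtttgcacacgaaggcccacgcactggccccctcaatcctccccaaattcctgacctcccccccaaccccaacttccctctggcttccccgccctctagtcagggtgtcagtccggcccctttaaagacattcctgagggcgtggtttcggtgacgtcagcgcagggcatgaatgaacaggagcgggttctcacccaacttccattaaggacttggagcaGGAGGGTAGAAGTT
Efnb2: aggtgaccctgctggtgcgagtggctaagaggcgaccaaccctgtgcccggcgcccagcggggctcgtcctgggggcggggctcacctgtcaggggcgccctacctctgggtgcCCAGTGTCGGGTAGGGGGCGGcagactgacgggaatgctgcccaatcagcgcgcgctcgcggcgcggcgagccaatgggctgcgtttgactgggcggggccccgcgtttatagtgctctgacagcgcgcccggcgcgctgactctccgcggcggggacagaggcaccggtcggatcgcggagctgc
Efna1: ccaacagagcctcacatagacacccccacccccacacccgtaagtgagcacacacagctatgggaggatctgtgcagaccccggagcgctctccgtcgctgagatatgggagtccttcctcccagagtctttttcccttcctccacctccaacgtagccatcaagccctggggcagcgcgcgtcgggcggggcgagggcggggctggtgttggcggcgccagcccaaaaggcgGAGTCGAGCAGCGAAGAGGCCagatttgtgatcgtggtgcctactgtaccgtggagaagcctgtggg

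In these windows the summits sat close to the start and mostly before it. Counted from the start on the gene's strand, the strongest summit lay at -206 in Ephb3, -126 in Efnb2, -107 in Epha1, -103 in Ephb2, -100 in Ephb1, -65 in Ephb4 and -49 in Epha4. It lay at +46 in Epha2, the one gene of the 9 whose strongest summit was downstream of the start. Efna1 had a summit of 46.6-fold at -352 from its outer start and another of 32.7-fold (29.0 to 36.7) at -7 from its inner start, so its promoter opening covered both starts. Of the 9 genes 8 (88.9%) thus had the strongest summit upstream, against 61.5% of the 11148 protein-coding genes with a summit within 1000 bp of a start. The median position was -103 bases for the 9 genes and -37 for all of them.

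The letters of the windows were searched on both strands for 7 short motifs, each match given by its first base on the gene's strand, counted from the start. No window of the 9 genes held the AP-1 motif TGANTCA, present in 7.04% of the 21045 start windows of protein-coding genes. Nor did any hold the TCF/LEF motif CTTTGAT (3.25% of all windows), the HNF4 motif CAAAGTCCA (0.456%) or the CDX motif TTTATGG (2.28%). The GC box GGGCGG, the short sequence bound by Sp and Klf factors, was in 8 of the 10 windows, from 7 genes, against 46.7% of all windows. Ephb3 had it at -128 and -113, between its summit and the start, beside an E-box CAGCTG at -137 (15.7% of all windows). Efnb2 had it at -177, -121 and -45, the one at -121 falling within the capitals that mark its summit, and a TATA box TATAAA on the opposite strand at -30 (12.7% of all windows). The inner start of Efna1 had GC boxes at -66 and -55, and Epha2 had one at -96. Neither Ephb2 nor Ephb1 had a match to any of the 7 motifs. The windows held from 10 CpG in Epha2 to 35 in Efnb2, where the median window of protein-coding genes held 13. Ephb3 had 23 and Ephb2 24, whereas Ephb1, the least open of the 9, had 14, the same as Ephb4 and Epha1. A match or its absence describes these letters only, and nothing is drawn from it about any factor.

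At the stronger of their outer ends, most of the genes lay above the median of all protein-coding genes. Of the 10 genes, 9 carried a summit no more than 1000 bp from one of their outer ends, where 64.3% of the 21631 protein-coding genes did, and 8 of the 10 reached 20-fold, where 39.7% of all genes did. The median was 40.4-fold for the 10 genes and 9.62-fold for all protein-coding genes. The strongest end summits of Ephb2, Ephb4 and Epha1 also lie within Gm31536, Gm52791 and 2010310C07Rik, genes that are not protein-coding. In all 9 genes the stronger end was the one that holds the annotated start, and the other end had at most 8.58-fold, in Efna1. Counted by region, which includes these weak far ends, the 20 regions of the genes that lay at a protein-coding gene end had a median of 7.54-fold, against 17.4-fold for all regions at ends, and 45% of them reached 10-fold, against 60.1%.

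Ephb3 (NCBI Gene 13845, chromosome 16, 21204620 to 21223309), a receptor known from the crypt base, had the strongest end, 71.3-fold (65.8 to 77.2), above 98.3% of protein-coding genes. Ephb2 (NCBI Gene 13844, chromosome 4, 136647536 to 136836326), the receptor graded along the colonic crypt and used to sort its stem cells, had 23.7-fold (20.5 to 27.1). The intervals of these 2 Wnt targets did not overlap. Ephb4 (chromosome 5, 137350109 to 137374522), a receptor for ephrin-B2 that is known from veins and also present in colonic epithelium, had 24.5-fold (21.3 to 28.0), which overlapped the interval of Ephb2. Ephb1 (chromosome 9, 101922128 to 102354693), a receptor best known from axon guidance, had 8.0-fold (6.24 to 10.1), below the median of all genes and with an interval apart from those of the other 8 open genes.

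The 3 A-class receptor genes had similar values at their ends. Epha1 (chromosome 6, 42358487 to 42373314), an epithelial receptor, had 41.2-fold (37.0 to 45.7). Epha4 (chromosome 1, 77367182 to 77515107), which can bind ephrins of both classes, had 40.7-fold (36.6 to 45.2), and Epha2 (chromosome 4, 141301221 to 141329384), the epithelial receptor for ephrin-A1, had 40.1-fold (36.0 to 44.6). These intervals overlap almost wholly, so no order among the 3 can be read. All were below Ephb3 and above Ephb2 and Ephb4 by more than counting error.

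The ligand genes ran from no summit to the value next below Ephb3. Efnb2 (chromosome 8, 8617235 to 8661242), encoding ephrin-B2, had 65.2-fold (59.9 to 70.8), and its interval overlapped that of Ephb3. Efna1 (chromosome 3, 89271730 to 89280951), encoding ephrin-A1, the main ligand of EphA2, had 46.6-fold (42.2 to 51.4), below Efnb2 and overlapping the A-class receptors. Efnb3 (chromosome 11, 69554092 to 69561150), encoding the B-class ephrin best known from the nervous system, had no summit anywhere in the gene or within 1000 bp, and no assigned region. In the other 9 genes a summit was found in the gene or that close to it, as in 74.5% of all protein-coding genes. The nearest called summits to Efnb3 were 7.20 kb from one end, 8.0-fold and nearest to Dnah2, and 14.3 kb from the other, 6.84-fold and nearest to Wrap53. The lowest pileup called anywhere was 17, so weaker opening at Efnb3 would not be listed.

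**Figure D1:**
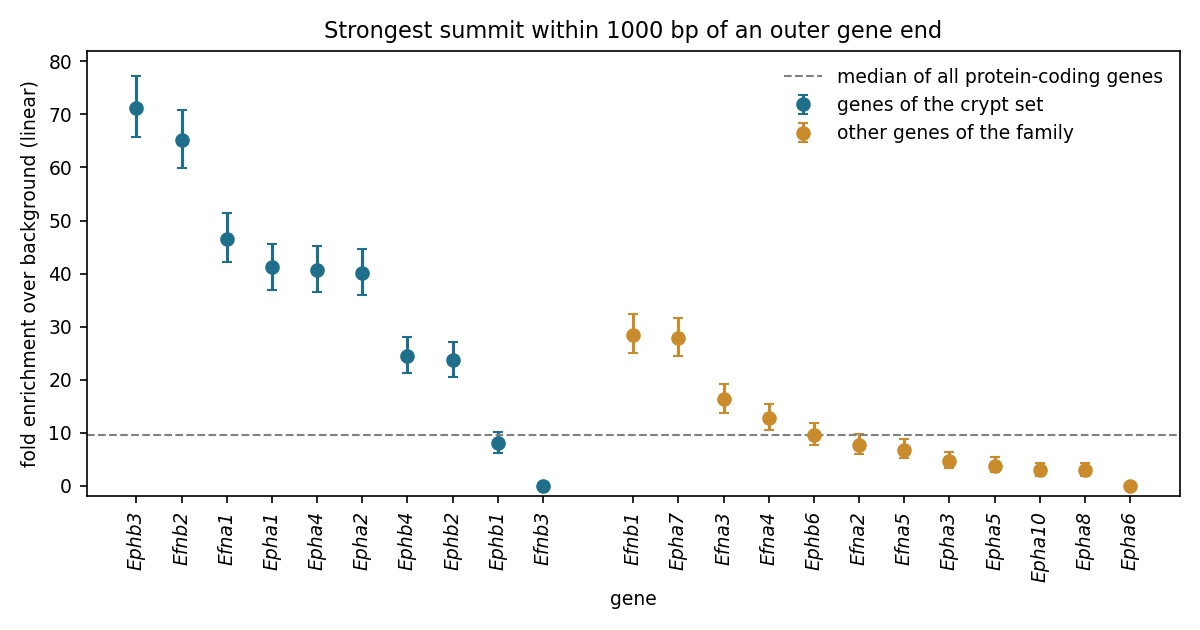
Strongest summit within 1000 bp of an outer end for each of the 10 genes and of the other 12 genes of the family, as fold enrichment over background on a linear axis; bars are exact Poisson 95% intervals of the pileup, points at 0 had no summit, and the dashed line is the median of all protein-coding genes (9.62-fold). Of the 10 genes, Ephb3 and Efnb2 stand highest, 6 lie between 23.7 and 46.6-fold, and Ephb1 and Efnb3 lie below the line.

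The number of regions around the genes also differed widely, from 0 to 38. In all, 182 regions away from protein-coding gene ends were assigned to them, 110 inside the genes and 72 outside, with a median of 17 per gene against 2 for all protein-coding genes. At least 1 was assigned to 9 of the 10, as to 69.7% of all genes. Of the 10 genes 5 had 20 or more, where 3.22% of all genes did, and these 5 held 159 of the 182. Ephb2 had 38, Efnb2 36, Epha4 34, Ephb3 26 and Epha2 25. Epha1 had 9, Ephb4 7, Efna1 5 and Ephb1 2, and Efnb3 had none. Among genes at least as long as each, these counts were above those of 96.6% for Ephb2, 97.96% for Efnb2, 95.2% for Epha4, 96.6% for Ephb3 and 95.2% for Epha2, and of 77.8% for Epha1, 64.8% for Ephb4, 62.8% for Efna1, 32.7% for Ephb1 and none for Efnb3. The rule favours genes with distant neighbours. The next protein-coding genes lie 586 and 1808 kb from Epha4 and 3512 kb beyond the 3′ end of Efnb2. Ephb1 also has distant neighbours, 151 and 670 kb away, and is 433 kb long, and its count was 2. The counts also depended on the settings. With a −log10 q of at least 10 the highest was 17, in Ephb3, so no gene kept 20 or more. With regions within 1 kb joined, Ephb2 and Epha4 had 22 each and Efnb2 18. Where the nearest end could be that of a gene of any type, Efnb2 alone kept 20 or more, at 28. Ephb2 then had 13 and Epha4 5. The share of all genes is given for the main setting only.

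**Figure D2:**
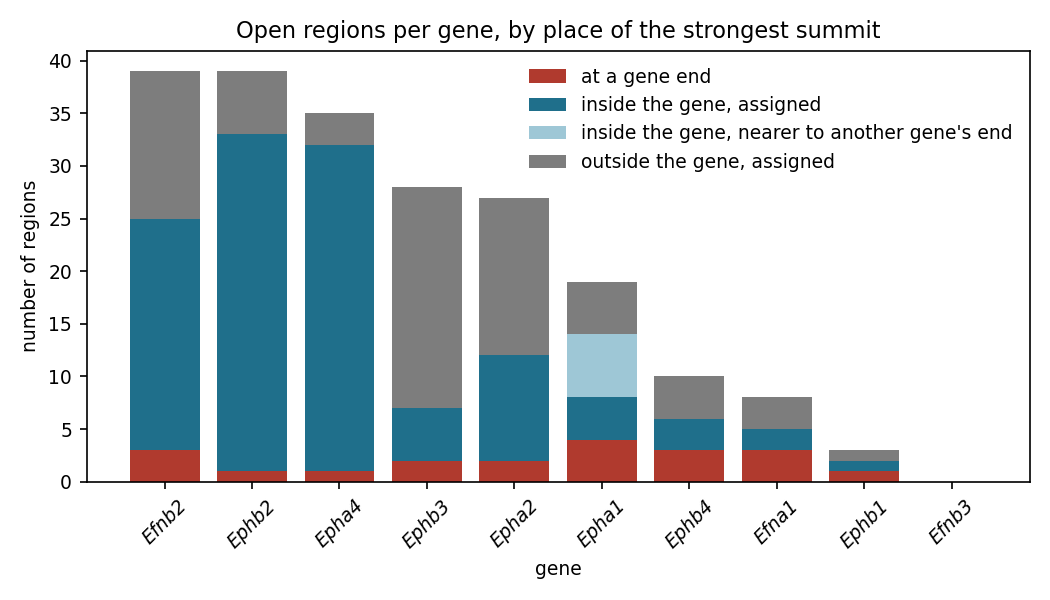
Number of regions counted for each of the 10 genes, split by the place of the strongest summit: within 1000 bp of any protein-coding gene end, inside the gene and assigned to it, inside the gene but nearer to another gene's end, or outside and assigned. Efnb2 and Ephb2 have 39 each and Efnb3 has none; in Ephb2 and Epha4 most lie inside the gene, in Ephb3 and Epha2 most lie outside.

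Most of these regions were weak and a few were as strong as a promoter. Away from ends the median was 3.71-fold for the 182 regions and 4.64-fold for the 97735 regions of the list, and 37 of the 182 (20.3%) reached 10-fold, against 21.7% of all, so their strength was near the background. More than 1 summit was found in 54 of the 182 (29.7%) and in 17.2% of all regions away from ends, and the median widths were 469 and 454 bp. Across all places 17 of the 208 regions reached 20-fold. The share of all regions at that level is not given, so this count is a description only. Of the 17 regions, 8 were at the ends of 8 genes, 2 lay inside Ephb2 and Epha4, and 7 lay outside Epha2, Efnb2, Ephb2 and Ephb4.

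Epha2 had strong regions before its start and weaker regions over most of the gene. Upstream of it, at chr4:141286101-141289758, a region of 3658 bp reached 51.6-fold (46.9 to 56.6), 13.4 kb before the start, above the 40.1-fold at the start itself by more than counting error. The next, at chr4:141296899-141299263, reached 48.0-fold (43.5 to 52.8) at 3.14 kb before the start, and another, at chr4:141279964-141283162, reached 28.1-fold (24.6 to 31.8) at 19.9 kb. Within the gene, a region of 10023 bp with 24 summits reached 11.5-fold, and 89.5% of the gene was covered by called regions, more than in 99.97% of the 7889 genes at least as long. Downstream, a region of 4783 bp and 9 summits reached 12.2-fold just past the 3′ end. The 27 regions of Epha2 carried 103 of the 391 summits of the 10 genes. Of the 10 regions assigned inside the gene 9 were below 5-fold, and the median of the 10 was 3.42-fold. Such values are common, as the median of all regions inside genes and away from ends was 4.41-fold.

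Epha1 resembled Epha2 in coverage but not in strength. Called regions covered 73.0% of its 14.8 kb, more than in 99.8% of genes at least as long. Behind the 41.2-fold start, however, its strongest assigned region was 11.5-fold (9.34 to 14.0), 3.17 kb into the gene. Its 3′ part overlaps Zyx, the gene of the focal adhesion protein zyxin, and 6 regions inside Epha1 were nearer to an end of Zyx.

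In Ephb2 the strongest opening was not at the start. A region at chr4:136840858-136843492, 6.66 kb before the gene, reached 32.7-fold (29.0 to 36.7), and one at chr4:136800726-136803709, 33.4 kb into the gene, reached 31.2-fold (27.6 to 35.1). Both were above the 23.7-fold at the start with intervals that did not overlap its own. The lower bound of the second, 27.6, was close to the upper bound of the start, 27.1. The summit of the intragenic one also lies in the noncoding gene Gm52708. The other 31 regions assigned inside Ephb2 ran from 1.93 to 187 kb from the start, along nearly the whole gene. They included regions of 13.8, 12.8 and 10.3-fold at 5.94, 20.4 and 31.5 kb, and 23 of the 32 inside the gene were below 5-fold. The median of the 32 was 3.83-fold, against 4.41-fold for all regions inside genes and away from ends. Upstream 6 regions were assigned, and downstream none. On the downstream side Lactbl1 is only 9.43 kb from the gene, whereas C1qb on the upstream side is 43.8 kb away.

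Ephb3 showed the reverse, a strong start with many moderate regions beyond the gene. Its start lay in a region of 4826 bp with 5 summits, and 5 more regions were assigned inside the gene. Outside, 17 regions lay downstream and 4 upstream. The strongest were 18.1-fold (15.4 to 21.1) at 41.3 kb and 12.9-fold at 93.0 kb after the start, and 16.6-fold (14.0 to 19.5) at 18.9 kb before the gene. None reached 20-fold, so the strongest was well under the 71.3-fold of the start. The neighbouring genes are Teddm3, 50.7 kb away, and Vps8, 199.8 kb away on the downstream side. The assigned region farthest from any gene end was one of these, at 99.3 kb and 6.26-fold. The nearest beyond the limit was 108.2 kb from an end of Epha4, at 2.20-fold, and 50 regions with Efnb2 (24) or Epha4 (26) as nearest gene lay farther than the limit.

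**Figure D3:**
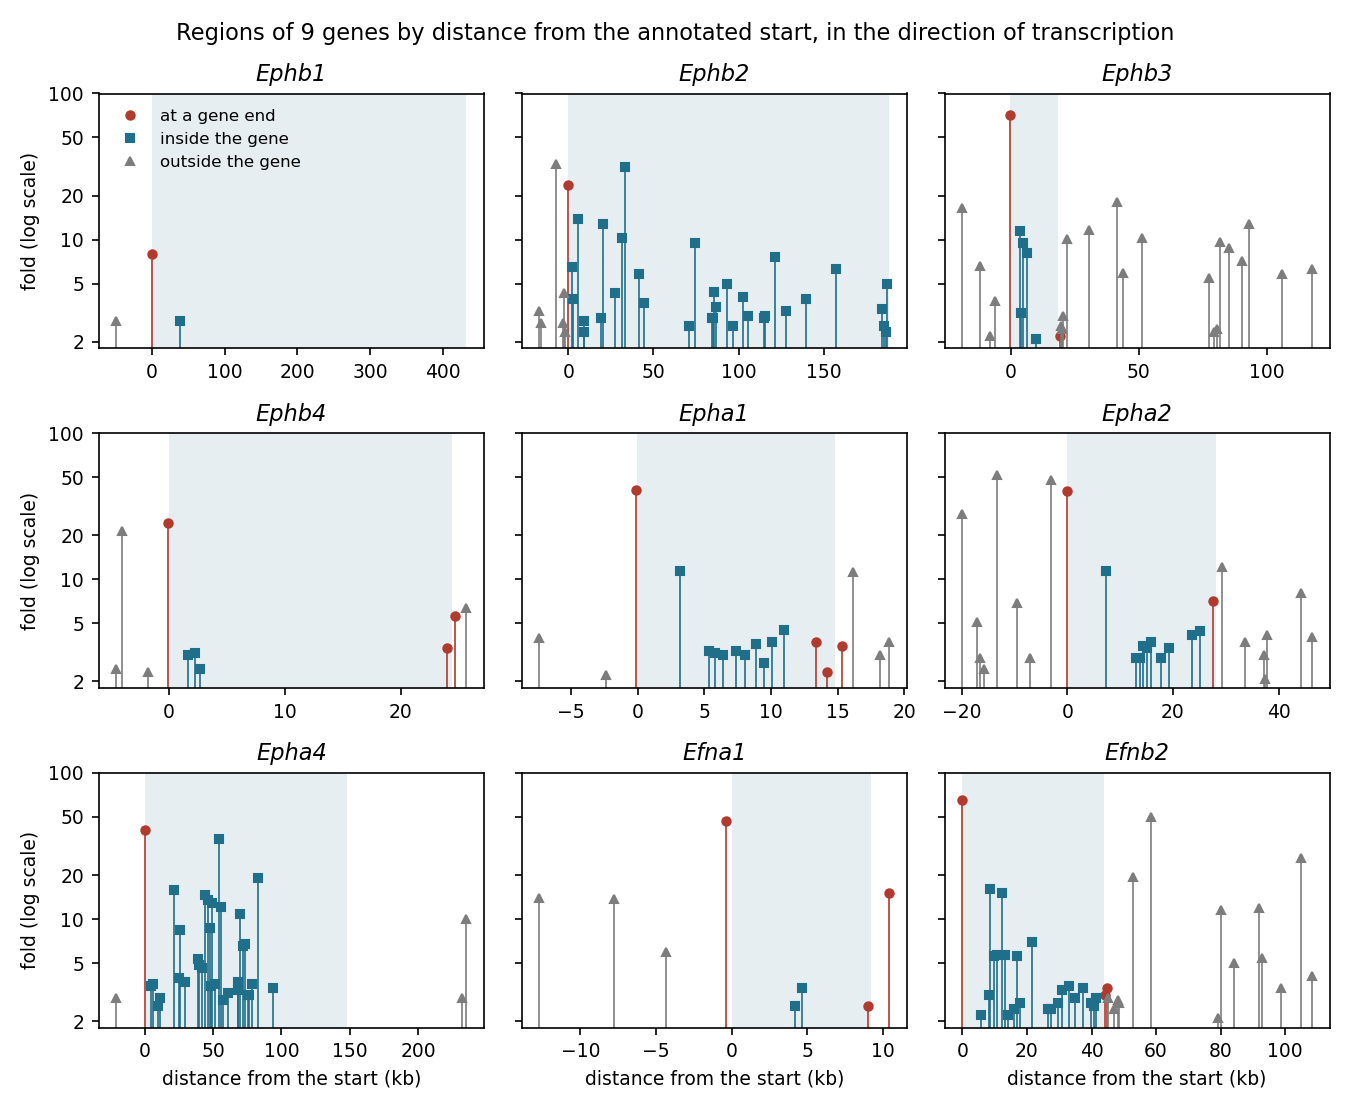
Each region of 9 genes by the distance of its strongest summit from the annotated start in kb, positive in the direction of transcription, and its fold on a log axis; the shaded band is the gene, and colours give whether the summit is within 1000 bp of any protein-coding gene end, inside the gene or outside it. Epha2 has its strong regions upstream, Efnb2 downstream of the gene, Epha4 in the first 94 kb of the gene, and Ephb1 has 3 regions in all; Efnb3 has none and is not drawn.

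Within the 100 kb limit, Epha4 carried most of its regions inside the gene. Of 31 assigned there, 26 lay between 20 and 85 kb from the start, and none farther than 93.9 kb in a gene of 148 kb. The strongest, at chr1:77459561-77463140, had 7 summits and reached 35.2-fold (31.4 to 39.4) at 54.2 kb, an interval that overlapped that of the start (40.7-fold, 36.6 to 45.2). A region at 83.0 kb reached 19.0-fold. Of the 31, 8 were at 10-fold or more, against 20.7% of all regions inside genes and away from ends. The median of the 31 was 3.94-fold, against 4.41-fold for all such regions. Outside the gene 3 regions were assigned within 100 kb, the highest at 9.97-fold. A further 26 regions with Epha4 as nearest gene lay outside it beyond that limit and were not counted.

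Efnb2 combined a strong start with strong regions beyond its 3′ end. All 14 of its outside regions lay downstream, and on the other side Arglu1 is only 5.06 kb from the gene. The strongest, at chr8:8602130-8606630, was 4501 bp wide and reached 50.0-fold (45.4 to 54.9) at 14.4 kb from the 3′ end. Beside it lay one of 19.2-fold, and a region at chr8:8556048-8556799 reached 26.3-fold (23.0 to 30.0) at 60.9 kb from the end. Inside the gene 22 regions were assigned, the highest being 16.0-fold at 8.65 kb from the start, and 15 of the 22 were below 5-fold. The median of the 22 was 2.96-fold, against 4.41-fold for all regions inside genes and away from ends.

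The remaining genes had few regions. Ephb4 had 1 strong neighbour, at chr5:137345780-137346483, which reached 21.4-fold (18.5 to 24.8) at 4.02 kb before the start, an interval that overlapped that of the start (24.5-fold). Its 3 assigned regions inside the gene were at most 3.13-fold. Efna1, a short gene of 9.22 kb, had its start in a region of 5487 bp with 8 summits, and upstream regions of 13.9 and 13.8-fold at 12.7 and 7.77 kb from the outer start. A region of 15.2-fold at its other end had its strongest summit at the end of Slc50a1, the neighbouring sugar transporter gene. Ephb1 had 1 region inside and 1 outside, both at 2.78-fold (1.81 to 4.12), and 0.143% of the gene was covered.

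Across the 9 genes with both, the strongest assigned region exceeded the strongest end summit in 2 (22.2%), Epha2 and Ephb2, where it did so in 33.3% of the 11532 protein-coding genes with both. Epha4 and Ephb4 had regions within counting error of their starts, and in Efnb2, Ephb3, Efna1, Epha1 and Ephb1 the start was the stronger with intervals apart.

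**Figure D4:**
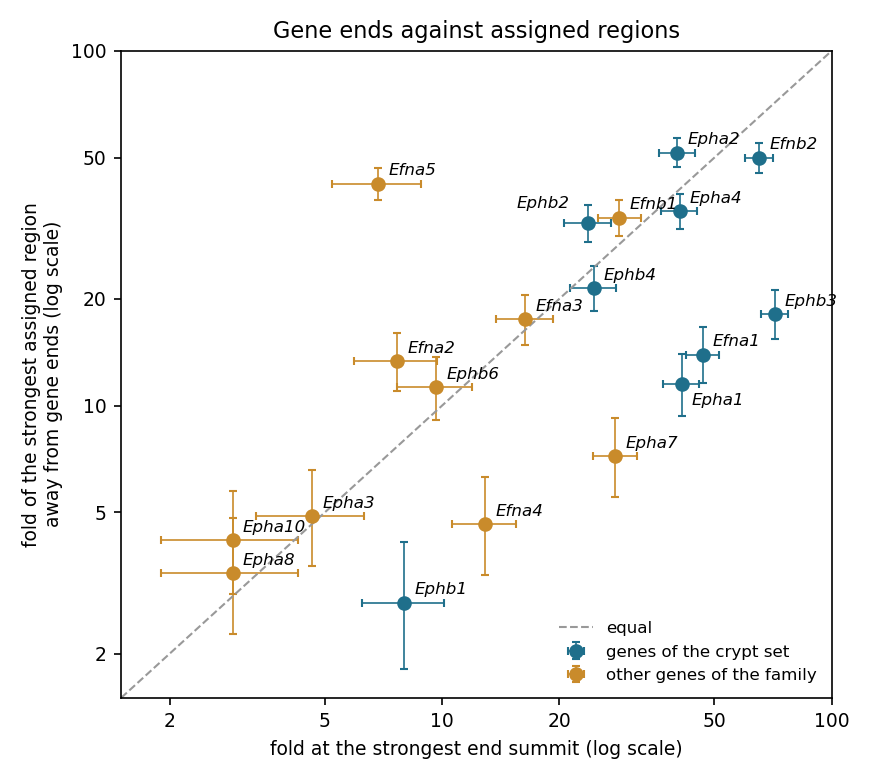
Fold of the strongest assigned region away from gene ends against fold at the strongest end summit, both on log axes, for the 9 genes and for the other genes of the family that have both; bars are exact Poisson 95% intervals and the dashed line marks equal values. Of the 9 genes, Epha2 and Ephb2 lie above the line, Epha4 and Ephb4 near it and Ephb3, Efna1 and Epha1 far below. Of the 10 other genes drawn, 8 lie above the line, Efna5 the farthest.

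The other 12 genes of the family were mostly less open. A summit at an outer end was found in 11 of them (64.3% of all genes), but only 2 of the 12 reached 20-fold (39.7% of all genes). The median of the 12 was 7.25-fold against 40.4-fold for the 10 crypt genes. The median of the 12 depended on the window, being 4.46-fold at 500 bp and 12.3-fold at 2000 bp, and 8 of the 12 had a summit with a −log10 q of 10 or more. The 10 were chosen as genes of the crypt, with earlier results of these data known. This difference is therefore a description and no test. The exceptions were Efnb1, the B-class ephrin of the upper crypt, with 28.5-fold (25.1 to 32.3) and 15 assigned regions, and Epha7, known from neural patterning, with 27.8-fold (24.4 to 31.6) and 4. Epha6, known from the nervous system, had no summit at an end and 1 region in 969 kb. Efnb1 was thus above Ephb1 and Efnb3. Its value was also higher than those of Ephb2 (23.7-fold) and Ephb4 (24.5-fold), with an interval that overlapped both of theirs. The following neighbours were chosen after their values were seen. Epha8, a neural receptor gene 93.1 kb from Ephb2 with the C1q genes between them, had 2.90-fold (1.90 to 4.26) and 2 assigned regions, against 23.7-fold and 38 for Ephb2. Efna3 and Efna4, which follow Efna1 on chromosome 3, had 16.3-fold (13.8 to 19.3) and 12.9-fold (10.6 to 15.5), both below the 46.6-fold of Efna1 with intervals apart.

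Genes that act next to the receptors mostly had strong ends. All 29 genes of Eph signalling examined, among them kinases, adaptors, small GTPases and the ephrin-cleaving protease gene Adam10, had a summit at an end, where 64.3% of all genes did, and 26 of the 29 (89.7%) reached 20-fold, where 39.7% did. Their median was 36.3-fold, close to the 40.4-fold of the 10 crypt genes. The highest were Rasa1, which encodes a Ras GTPase-activating protein that binds Eph receptors, with 66.0-fold, and Rhoa, the small GTPase that drives contraction after repulsion, with 61.3-fold. The lowest at the ends, named after their values were seen, were Grip1 with 4.29-fold, below the median of all genes, and Vav3 with 10.4-fold. Grip1 is the gene of a PDZ scaffold that binds B-class ephrins, and Vav3 that of a guanine nucleotide exchange factor. Both had a stronger summit inside the gene, of 21.9-fold in Grip1 and 44.6-fold in Vav3. The one in Vav3 lay in a region assigned to that gene. The one in Grip1 did not, and the only region assigned to Grip1 was weaker. The annotated start of Grip1 that was matched lies inside its outer bounds and had 6.26-fold, so the value at its end is not that of this start. Cdh1 is also one of the 10 epithelial markers above. Most of these genes are used in many cell types. Their median of 8 assigned regions was below the 17 of the crypt genes and above the 2 of all protein-coding genes.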

How the data were processed

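Bulk ATAC-seq of 4 libraries was represented by 1 deposited peak list for the series, in narrowPeak format; the number of sample columns left unused was 0. Per the submitters' processing notes, Bowtie2 and MACS2 were used with mm10, in versions not stated. The call's threshold, its treatment of duplicates and its input libraries are not stated either. The authors' peak caller wrote a fold enrichment (a linear ratio) at each summit. The deposited −log10 q of a summit was never below 1.51, and the deposited score repeats it times 10 without decimals, as checked in 100% of records.

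From these, records with the same bounds were joined into 1 region, placed by its strongest summit. All 751 distinct fold values were whole steps of 1 constant (100% of records, tolerance 0.01), so the background was the same at every base; pileups were read as fold = (pileup + 1) / (background + 1), the form MACS2 writes by default. The single background means that copy number and mappability were not divided out, and the depth of each library is unknown. Gene bounds came from a RefSeq table on GRCm38.p6, the assembly behind mm10, in which all listed genes were found, and starts from its table of start windows. Ends are the outer bounds of a gene. "Away from gene ends" means over 1000 bp from every protein-coding gene end; nearness does not show that a region acts on a gene. Sharing of reads between related gene copies was not tested. The named genes were all 10 members, the 2 strongest of each other list and those without an end summit (the first 2 if over 5). Each gene's strongest regions are given. Further regions are given in part only, so those named are not all that reached 10-fold. The members and lists were chosen with earlier results of these data known. With 1 list there was no test, and no p-value is given. Alternatives were other windows, distances, a −log10 q of at least 10, joined regions and ends of all gene types. Scripts (Python 3.11.15, pandas 2.3.3, scipy 1.17.1) were tested on simulated data.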

Additional observations from a re-analysis of the deposited data

How the results depend on the processing

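Of the 10 crypt genes, 9 had an end summit with windows of 500 and 2000 bp, with the stricter q (a −log10 q no lower than 10) and at annotated starts, and the median stayed between 40.4 and 40.7-fold. The median of the other 12 genes was 7.25-fold, but 4.46 at 500 bp and 12.3 at 2000 bp, and their genes with a summit fell from 11 to 8 with the stricter q. Starts lie at gene bounds, so leaving out summits beyond the bounds lowered the median of the strongest summit per gene from 40.4 to 15.4-fold, and that of Ephb3 from 71.3 to 11.4-fold. The counts of regions moved more. The 266 summits in or within 1 kb of the genes fell to 123 with the stricter q. The 182 assigned regions fell to 113 within 25 kb, 83 with the stricter q, 93 when regions within 1 kb were joined and 90 when the nearest end could be that of a gene of any type; they numbered 139 within 50 kb and 174 in an alternative chosen after seeing the data, which left out regions near ends of genes of any type. With the stricter q the median fold rose, by removal of weak regions, from 7.54 to 32.3 at ends, from 3.48 to 8.12 inside genes and from 4.99 to 9.97 between genes. Of 119 values of single genes under alternatives, 38 left the counting interval of a fold or changed a count by over 1.5 times; all were lower, as most alternatives only remove summits or regions. No paired analysis was possible because each group held 1 library and the list has no value per library; for the same reason no library could be left out. Depth limits the weak regions: Ephb1 at its 2 assigned regions had 2.78-fold with an interval of 1.81 to 4.12, so an order among weak regions cannot be read.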

Other observations

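Among the genes of the family outside the crypt set, Efna5, which encodes ephrin-A5, a ligand known from axon guidance, had a low end value and strong assigned regions; it was chosen after its values were seen. Its end had 6.84-fold (5.22 to 8.81), below the median of protein-coding genes, yet 28 regions were assigned to it, 21 of them outside the gene. Downstream of the gene 5 regions reached 20-fold, the strongest being 42.2-fold (38.0 to 46.8) at chr17:62562285-62563406, 40.2 kb from the 3′ end, followed by 30.7-fold at 45.5 kb and 28.6-fold at 62.1 kb. These values were in the range of the starts of Epha2 and Ephb2. The end value depends on the 1000 bp window: the region over the start has 10 summits, and its strongest, 22.3-fold, lies 1.82 kb before the start. The next protein-coding gene on the downstream side, Nudt12, is 3590 kb away, so the assignment rests on distance alone.

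Efnb1, which encodes ephrin-B1, likewise had its strongest region outside the gene: 33.9-fold (30.1 to 38.0) at chrX:99153731-99155145, 5.55 kb past the 3′ end, with an interval that overlapped that of its start (28.5-fold). Regions of 23.0-fold and 17.2-fold lay at 1.11 and 12.8 kb past the same end.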
